A study of Mus musculus with 4 samples.

Results

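CD4, CD8A, CD8B, ZBTB7B and RUNX3, the genes of the T cell coreceptors and of the transcription factors that separate the helper from the cytotoxic lineage, were followed in human T cells of huNSG-SGM3 mice after spinal cord injury (SCI). They are 5 of the 33538 human genes counted, with the identifiers ENSG00000010610 for CD4, ENSG00000153563 for CD8A, ENSG00000172116 for CD8B, ENSG00000160685 for ZBTB7B and ENSG00000020633 for RUNX3. A cell barcode was taken as a T cell when over 50% of its unique molecular identifiers (UMIs, each standing for 1 captured transcript) lay on human genes, when CD3D, CD3E and CD3G together had at least 1 UMI, and when MS4A1, a B cell gene, had none. This gave 13404 T cells of 18106 human barcodes, namely 4552 from naïve, 3928 from sham and 4842 from SCI mice in blood, and 82 from the injured cord.

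As background, CD4 binds MHC class II and CD8 binds MHC class I, and both bring the kinase LCK to the T cell receptor. CD8 occurs as a CD8 alpha homodimer or as an alpha and beta heterodimer, which need CD8A alone or CD8A with CD8B, and the heterodimer is the form typical of conventional cytotoxic T cells. ZBTB7B encodes ThPOK, which directs thymocytes to the CD4 helper fate and holds back cytotoxic genes. RUNX3 silences CD4 and acts with the cytotoxic programme in the CD8 lineage. Immature thymocytes carry both coreceptors, whereas most mature T cells of blood keep only CD4 or only CD8.

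Each condition is 1 library of live human CD45+ cells sorted by FACS. All hosts carried the Prkdcscid and IL2rgtm1Wjl alleles on a NOD background and a CMV-driven transgene for human IL3, CSF2 and KITLG, and had been irradiated as pups and engrafted with CD34+ cells of human cord blood. Naïve mice had no surgery, sham mice a T9 laminectomy and SCI mice a T9 contusion, with the operated mice taken after 7 days and an age of 15 weeks on the labels. Cells were pooled from several animals per library, the naïve and sham hosts were male while the SCI pool held both sexes, and cord cells alone went through papain digestion and magnetic enrichment. Condition, host sex and, for the cord, cell isolation therefore cannot be told apart, and with 1 library per group there is no test between conditions. Intervals are exact, at 95%, and cover counting error only.

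The T cells had median depths of 3565.5 UMIs (naïve blood), 5139.5 (sham blood), 4601.5 (SCI blood) and 8033.5 (SCI cord). TRAC, the constant chain of the alpha receptor, was detected in 93.3% to 96.0% of them, and CD79A, a B cell gene, in 7.89% to 11.1%. Because a gene is found more often in a deeper cell, classes were read after each cell had been thinned to 1000 UMIs, which left out 40 naïve, 7 sham and 15 SCI blood cells and 3 cord cells. Levels are given as CPM, the UMIs of a gene scaled to the summed human UMIs of the same cells without ribosomal protein and mitochondrial genes. Markers of other cell types moved with the library. The 6 monocyte markers were at 1126 CPM in naïve, 1070 CPM in sham and 172 CPM in SCI T cells of blood but at 3003 CPM in cord T cells, and the 5 basophil or mast cell markers at 48.0, 108, 78.2 and 1881 CPM. The part of these cells in the results below was not tested beyond leaving out the 3 T cell clusters that such genes lead.

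In the summed T cells of each library, the coreceptor genes differed most in SCI blood. The level of CD4 was 123 CPM (118 to 129) for naïve, 134 (129 to 140) for sham and 120 (115 to 126) for SCI blood, with 161 (131 to 196) for SCI cord. CD8A stood at 111 (106 to 117), 112 (107 to 117), 173 (166 to 179) and 125 CPM (98.6 to 156) in that order. CD8B stood at 100 (94.8 to 105), 118 (112 to 123), 195 (189 to 202) and 77.9 CPM (57.5 to 103). Both CD8 genes were therefore highest in SCI blood, while the CD4 intervals of naïve and SCI blood overlapped.

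**Figure D1:**
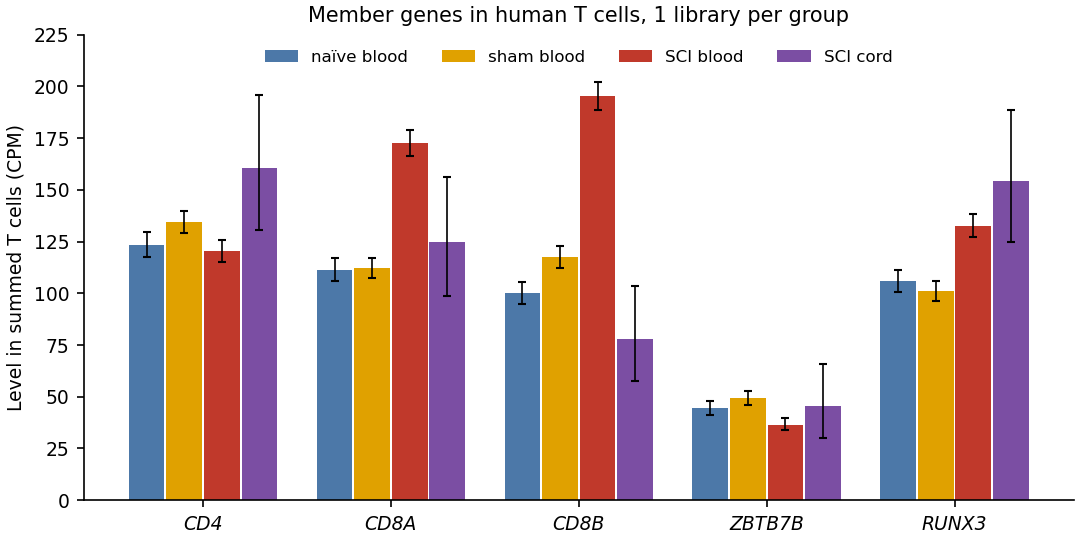
Level of CD4, CD8A, CD8B, ZBTB7B and RUNX3 in the summed T cells of each library (CPM, linear axis from 0), with bars for the level and whiskers for the exact 95% counting interval. CD8B reaches 195 CPM in SCI blood, above 118 CPM in sham and 100 CPM in naïve blood, while CD4 stays between 120 and 134 CPM in blood.

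ZBTB7B ran the other way. Naïve blood had 44.5 CPM (41.0 to 48.1), sham blood 49.1 (45.9 to 52.6), SCI blood 36.6 (33.8 to 39.5) and SCI cord 45.5 (30.2 to 65.7). RUNX3 stood at 106 CPM (100 to 111), 101 (96.3 to 106), 133 (127 to 138) and 154 (125 to 189). ZBTB7B was thus lowest and RUNX3 above both controls in SCI blood, and the ratio of ZBTB7B to RUNX3 UMIs was 0.421 (0.382 to 0.462) for naïve, 0.486 (0.447 to 0.528) for sham and 0.276 (0.252 to 0.301) for SCI blood, with 0.295 (0.186 to 0.453) for the cord. UMIs are counted once per transcript from its 3′ end, but capture can differ between genes, so such a ratio is compared between libraries and not with 1.

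The direct comparisons counted a gene when its CPM ratio, taken after adding 0.5 to both counts, passed 1.5-fold in either direction. For sham over naïve blood, 0 of the 5 genes passed this mark, against 8.95% of all genes tested, and their log2 ratios lay between −0.07 for RUNX3 and 0.23 for CD8B. For SCI over naïve blood, 2 of the 5 passed, against 13.8% of all genes, namely CD8A with a log2 ratio of 0.63 (0.54 to 0.72) and CD8B with 0.97 (0.88 to 1.06). For SCI over sham blood the same genes passed, against 12.1% of all genes, with 0.62 (0.54 to 0.70) for CD8A and 0.73 (0.65 to 0.81) for CD8B. CD4 gave −0.04 (−0.13 to 0.06) over naïve and −0.16 (−0.24 to −0.07) over sham blood, ZBTB7B −0.28 (−0.44 to −0.12) and −0.43 (−0.58 to −0.28), and RUNX3 0.33 (0.23 to 0.42) and 0.39 (0.30 to 0.48), none of which passed the mark. Both SCI comparisons use the same SCI library. CD8A sits just over the mark, and over naïve blood it was at 0.56 once the clusters led by monocyte, basophil or mast and plasma cell genes were left out.

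The CD8A and CD8B ratios were smaller when each T cell cluster had the same weight on both sides, namely its UMI share averaged over both libraries. The T cells were clustered without the 5 genes. With these weights the log2 ratio of SCI over naïve blood was 0.10 for CD8A and 0.21 for CD8B. That of SCI over sham blood was 0.14 and 0.12, so that 0 of the 5 genes passed 1.5-fold. CD4 was then at 0.10 and 0.08, which turns its sign, ZBTB7B at −0.08 and −0.13, and RUNX3 at 0.14 and 0.19.

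Cells were next sorted into classes by whether they held a UMI of CD4, of CD8A or CD8B, of both, or of neither. At 1000 UMIs per cell, CD4 single-positive cells made up 8.51% (7.71 to 9.36) of naïve, 9.41% (8.51 to 10.4) of sham and 7.42% (6.69 to 8.19) of SCI blood T cells. CD8 single-positive cells made up 11.4% (10.5 to 12.4), 12% (11 to 13.1) and 19.3% (18.2 to 20.5). The CD4 to CD8 ratio of cells was 0.744 (0.650 to 0.851) for naïve, 0.782 (0.680 to 0.898) for sham and 0.383 (0.338 to 0.433) for SCI blood. SCI blood thus had 0.515 times the ratio of naïve (0.429 to 0.619) and 0.490 times that of sham blood (0.407 to 0.591), whereas sham had 1.05 times that of naïve blood (0.865 to 1.28). As a check of the thinning, the value expected over all possible draws was 0.748, 0.755 and 0.396, and without the barcodes that libraries share, thinned anew, it was 0.728, 0.693 and 0.359.

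Counting UMIs in place of cells gave the same order. The ratio of CD4 UMIs to those of both CD8 genes was 0.584 (0.550 to 0.620) for naïve, 0.585 (0.556 to 0.616) for sham and 0.327 (0.311 to 0.344) for SCI blood, which needs no threshold per cell. Gene by gene, the thinned share of T cells with CD8A was 7.2% in naïve and 7.40% in sham against 11% in SCI blood, and that with CD8B 6.34% and 6.94% against 12%. ZBTB7B was found in 3.06%, 3.37% and 2.57% and RUNX3 in 7.14%, 7.42% and 9.22% of thinned cells. ZBTB7B is thus the most sparsely detected of the 5 genes in blood, with 1.10 to 1.19 UMIs in a cell that held it, and it can be read only over sums of cells.

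B cells, taken as cells with MS4A1 and no CD3 gene, served as the class that should lack these transcripts. At 1000 UMIs a CD4 UMI was found in 0.0792%, 0.171% and 0.218% of them in naïve, sham and SCI blood, against 8.67%, 9.59% and 7.46% of T cells, and CD8A and CD8B in at most 0.218%. Median depths were 3608.5, 5693 and 4863 UMIs in these B cells and those given above in T cells. Coreceptor UMIs in T cells were therefore well above the background in cells of similar depth.

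The level of the ratio itself moved with depth. In cells with at least 4000 UMIs, thinned step by step from 4000 to 250 UMIs, the ratio went from 1.36 to 0.437 (naïve), from 1.14 to 0.544 (sham) and from 0.722 to 0.288 (SCI). At full depth it was 1.30, 1.56 and 0.80, so that the side of 1 on which naïve and sham blood lie is not fixed by these data. SCI blood was below both controls at each of the 5 depths. A cell with CD4 held 1.39 to 1.60 CD4 UMIs on average in blood, against 2.08 to 2.52 for CD8A and 2.00 to 2.63 for CD8B in the cells that held those.

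**Figure D2:**
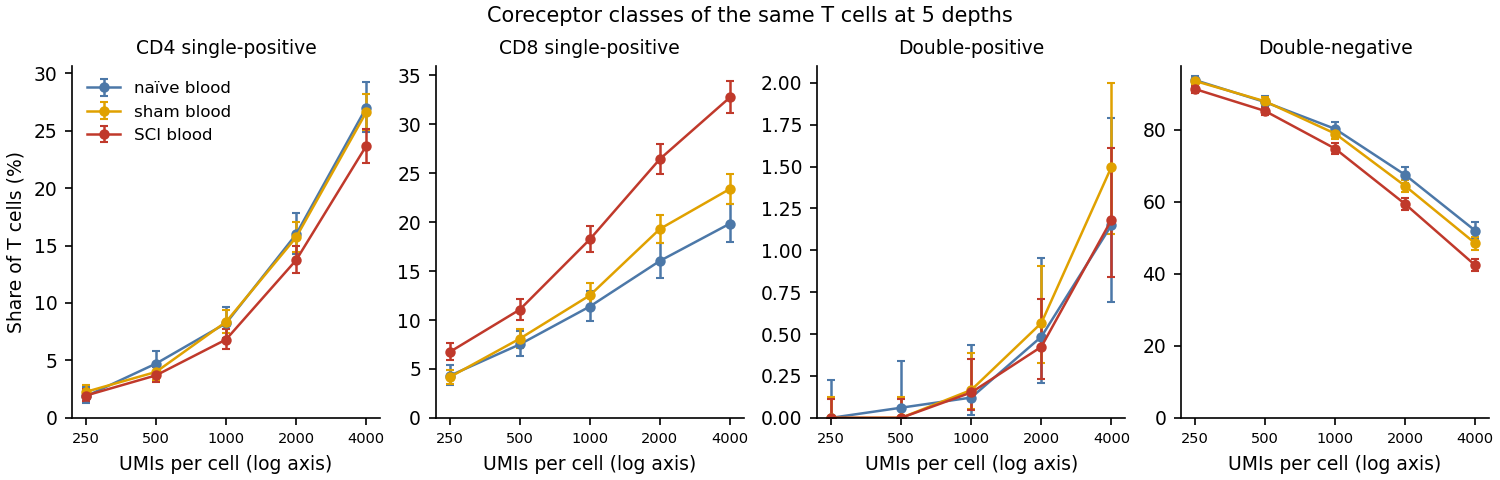
Share of T cells (%) in each coreceptor class against the number of UMIs to which every cell was thinned (log axis), for cells of the 3 blood libraries with at least 4000 UMIs; whiskers are exact 95% intervals. CD8 single-positive cells are more frequent in SCI blood at all depths shown, and the double-negative share falls from over 90% to between 42.4% and 52.0% as depth grows.

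Double-negative was the largest class and also the one that depth changed most. It held 79.9% (78.7 to 81.1) of naïve, 78.4% (77.1 to 79.7) of sham and 73.2% (71.9 to 74.4) of SCI blood T cells at 1000 UMIs, and 52.8%, 41.3% and 37.4% at full depth. The cells between these shares are T cells whose coreceptor transcript was missed at the lower depth, and the share of true double-negative cells could not be measured at either. Of the thinned cells of cluster 3, which is led by GZMK and in which 79.7% to 88.6% of cells were CD8 single-positive at full depth, 49.2% to 51.0% were still read as double-negative. TRDC, the constant chain of the gamma delta receptor, was at 53.6, 60.9 and 33.0 CPM in double-negative cells of naïve, sham and SCI blood, against 10.3, 27.9 and 25.0 CPM in CD4 and 12.5, 6.93 and 7.04 CPM in CD8 single-positive cells.

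Double-positive cells were rare. At 1000 UMIs they were 7 of 4512 cells in naïve blood (0.155%, 0.0624 to 0.319), 7 of 3921 in sham (0.179%, 0.0718 to 0.367) and 2 of 4827 in SCI blood (0.0414%, 0.00502 to 0.150), which overlap. At full depth there were 65, 90 and 94, of which 13, 22 and 18 held at least 2 UMIs of CD4 and of the CD8 genes. Scrublet marked 23.1%, 15.6% and 36.2% of these full-depth cells as doublets, against 3.11% to 4.16% of CD4 and 3.92% to 6.84% of CD8 single-positive cells. They were also deeper, with medians of 4898, 7562 and 8462 UMIs, and held 1899, 5875 and 609 CPM of the monocyte markers. CD4 single-positive cells of full depth held 2526, 1558 and 151 CPM and CD8 single-positive cells 530, 22.7 and 14.4 CPM. In naïve blood the double-positive cells were therefore below the CD4 class. Of the 7 markers of immature thymocytes, which include RAG1, DNTT and PTCRA, the double-positive cells of naïve, sham and SCI blood had 0, 0 and 2 UMIs in all. ZBTB7B stood at 90.7 (59.8 to 132), 62.1 (44.4 to 84.6) and 36.9 CPM (23.4 to 55.4) in these full-depth double-positive cells, and RUNX3 at 144 (105 to 195), 103 (79.3 to 130) and 186 CPM (154 to 223).

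Within the CD8 genes, the balance of CD8A to CD8B differed between libraries. The ratio of their UMIs was 1.11 (1.03 to 1.2) for naïve, 0.954 (0.896 to 1.02) for sham and 0.884 (0.841 to 0.928) for SCI blood, and 1.60 (1.10 to 2.35) for the cord. CD8B2, a near-identical copy of CD8B, held 28, 34, 64 and 0 UMIs, and since reads that match both copies may be lost or split in counting, the CD8B level is uncertain to that extent. Among thinned blood cells with a CD8 UMI, those with CD8A alone made up 45.3% (41.0 to 49.7) of 523 naïve, 43.2% (38.7 to 47.8) of 479 sham and 38.4% (35.2 to 41.6) of 936 SCI cells. Those with CD8B alone made up 37.9%, 39.5% and 43.5%, and those with both 16.8%, 17.3% and 18.2%. A cell with CD8A alone at this depth is not one without CD8B, since cells with both rose to 49.1%, 59.7% and 57.8% at full depth.

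Some other transcripts differed between cells with CD8A alone and with CD8B alone. NKG7, a granule protein of cytotoxic and NK cells, was at 1399, 706 and 1121 CPM in cells that held CD8A alone after thinning in naïve, sham and SCI blood, over all their UMIs, and at 727, 588 and 626 CPM in those with CD8B alone. KLRC1, an NK receptor, was at 116 (92.2 to 145) against 12.5 CPM (5.02 to 25.7) in naïve blood. In SCI blood it was at 18.5 (11.8 to 27.8) against 9.66 CPM (4.99 to 16.9), which overlapped. In sham blood it was at 2.34 against 2.71 CPM, from 2 UMIs on each side. GZMK ran the other way, with 2073, 1804 and 1906 CPM where CD8A was alone and 2286, 2151 and 2314 CPM where CD8B was alone, although the intervals of naïve blood met (1966 to 2184 against 2162 to 2414). RUNX3 was at 214 (180 to 252), 190 (162 to 221) and 226 CPM (200 to 254) with CD8A alone and at 189 (155 to 229), 173 (145 to 206) and 200 CPM (176 to 227) with CD8B alone, which overlapped in each blood library.

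**Figure D3:**
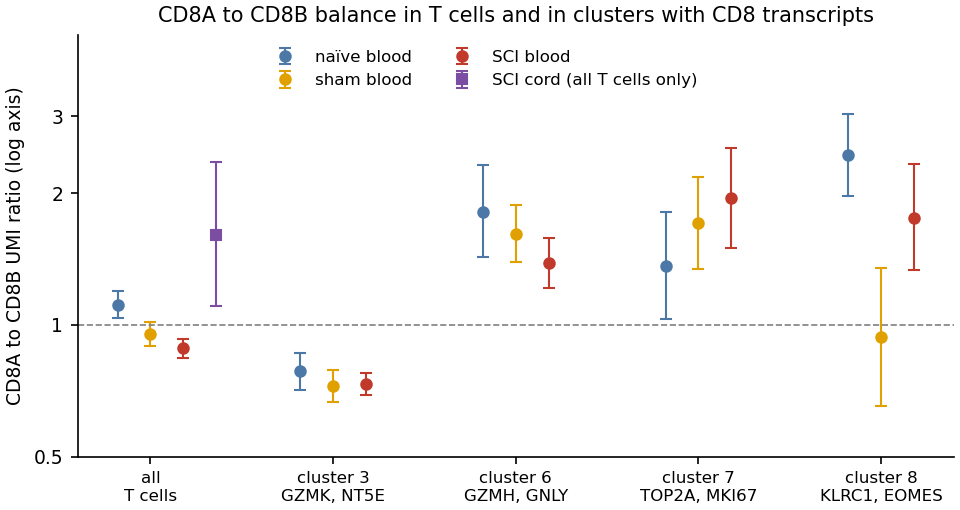
Ratio of CD8A to CD8B UMIs (log axis, with a dashed line at 1) in all T cells of each library and in the 4 clusters of blood T cells with most CD8 transcripts, labelled with genes that lead them; whiskers are exact 95% intervals. The line at 1 marks equal UMIs, not equal transcripts. Cluster 3 is lowest in the 3 blood libraries (0.785, 0.726 and 0.734), and cluster 8 is highest in naïve blood at 2.44.

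The balance also differed between clusters. Cluster 3, led by GZMK, SERPINF1 and NT5E, gave CD8A to CD8B ratios of 0.785, 0.726 and 0.734 in the same order, with CD8B at 581, 595 and 648 CPM. It held 674, 626 and 1424 cells, or 14.8%, 15.9% and 29.4% of T cells. Cluster 6, led by GZMH, GZMB and GNLY, gave 1.81 (1.43 to 2.32), 1.62 (1.39 to 1.88) and 1.38 (1.21 to 1.58). Cluster 8, led by KLRC1, CST7 and EOMES, gave 2.44 (1.97 to 3.03), 0.939 (0.653 to 1.35) and 1.76 (1.33 to 2.33) over 314, 72 and 107 cells, and its TRDC level was 431, 240 and 159 CPM. The intervals of this cluster thus did not overlap between naïve and sham blood, while cluster 3 stayed within 0.726 and 0.785. These intervals take each UMI as independent, although several can come from the same cell, so they are narrower than the spread over cells.

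The share of thinned CD8 single-positive cells that lay in cluster 3 was 62.8%, 65.7% and 77.2% in naïve, sham and SCI blood. Cluster 7, led by the proliferation genes TOP2A, TYMS and MKI67, held both kinds of cell, with CD4 at 140, 146 and 131 CPM and CD8A at 84.1, 90.4 and 84.6 CPM, and its CD8A to CD8B ratios were 1.37 (1.03 to 1.81), 1.71 (1.34 to 2.18) and 1.95 (1.5 to 2.53). Of the CD4 single-positive cells, most lay in clusters 1, 2 and 4, and in SCI blood a further 15.4% in cluster 5.

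CD4 and ZBTB7B were both high in clusters 1, 2 and 4 and low in cluster 3. CD4 lay between 131 and 199 CPM in clusters 1, 2, 4 and 5, led by FOXP3, by PDLIM1 and CCR10, by IGFBP4 and CD200, and by NRP2 and AK5. It was at 14.8, 9.84 and 5.77 CPM in cluster 3 of naïve, sham and SCI blood. ZBTB7B lay between 50.7 and 67.6 CPM in clusters 1, 2 and 4 and between 29.6 and 38.0 CPM in cluster 5, against 4.02 to 6.78 CPM in cluster 3. RUNX3 was at 201, 184 and 203 CPM in cluster 3 and at 248, 212 and 313 CPM in cluster 8, and lowest of the 8 largest clusters in cluster 4, at 46.6, 47.4 and 59.6 CPM. In cluster 5, which held 4.04%, 3.21% and 11.8% of T cells, CD8A was at 4.32 to 10.5 CPM and RUNX3 at 112, 93.1 and 132 CPM.

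**Figure D4:**
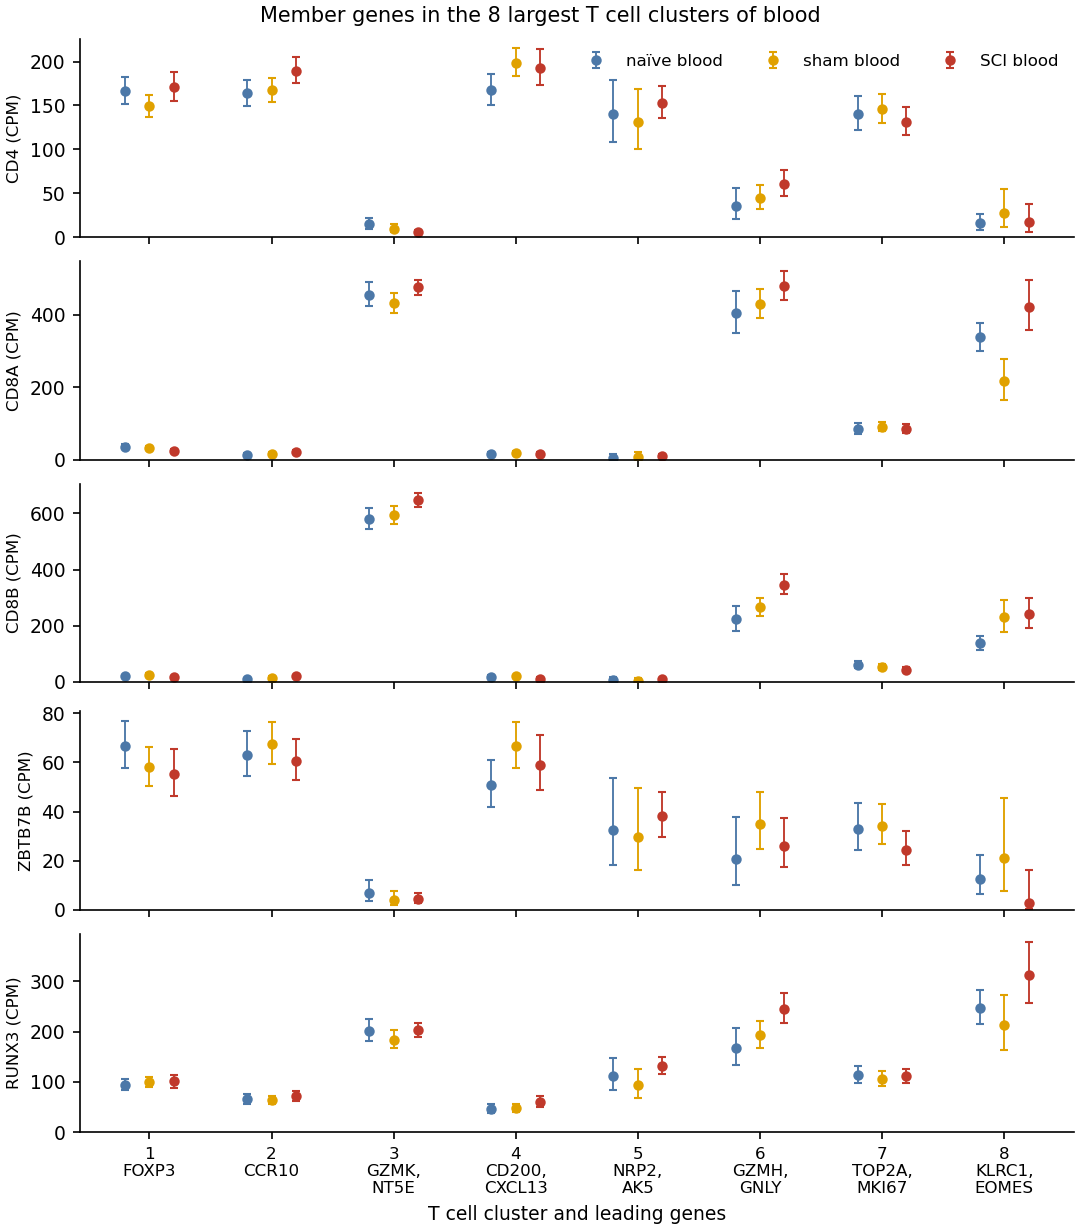
Level of the 5 genes (CPM, linear axes from 0) in the 8 largest T cell clusters of naïve, sham and SCI blood, which were made without these genes and carry names of leading genes; whiskers are exact 95% intervals. CD8A and CD8B are high in clusters 3, 6 and 8, where CD4 is at most 60.2 CPM, and ZBTB7B is at most 6.78 CPM in cluster 3.

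Within cluster 3, the CD8 genes lay closer together between libraries than over all T cells. CD8A was at 456 (424 to 490), 432 (405 to 460) and 476 CPM (455 to 497) in naïve, sham and SCI blood, so that naïve and SCI blood overlapped. CD8B was higher in SCI blood at 648 CPM (623 to 673) than in naïve at 581 (545 to 619) and sham at 595 (564 to 628), although by far less than 1.5-fold. RUNX3 in cluster 6 was at 167 (133 to 208), 193 (168 to 222) and 245 CPM (217 to 276), which separates SCI from naïve blood. In clusters 1, 2, 3, 4, 5, 7 and 8 the RUNX3 intervals of SCI and naïve blood overlapped. ZBTB7B overlapped between SCI and naïve blood in clusters 1, 2, 3, 4, 5, 6, 7 and 8.

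The regulators differed between the coreceptor classes, although they had no part in making them. With cells classed at 1000 UMIs and levels taken over all their UMIs, ZBTB7B was at 52.3 CPM (40.0 to 67.2) in CD4 and 15.3 (9.60 to 23.2) in CD8 single-positive cells of naïve blood, at 61.7 (50.5 to 74.7) and 8.53 (4.87 to 13.8) in sham and at 56.4 (44.6 to 70.3) and 11.1 (7.62 to 15.5) in SCI blood. The log2 ratio of CD4 over CD8 single-positive cells was 1.75 (1.05 to 2.55), 2.82 (2.09 to 3.71) and 2.33 (1.75 to 2.98). RUNX3 ran the opposite way, with 72.0, 70.5 and 95.6 CPM in CD4 and 203, 189 and 208 CPM in CD8 single-positive cells, and log2 ratios of −1.49 (−1.86 to −1.14), −1.42 (−1.73 to −1.12) and −1.12 (−1.40 to −0.85). At 1000 UMIs themselves, ZBTB7B was found in 2.86%, 3.79% and 6.98% of CD4 against 0.775%, 0.847% and 0.535% of CD8 single-positive cells, and RUNX3 in 3.65%, 3.79% and 6.70% against 13.2%, 12.1% and 12.6%. Both genes passed 1.5-fold in the 3 blood libraries, where 23.1%, 22.7% and 25.4% of all genes tested did so in naïve, sham and SCI blood. CD4, CD8A and CD8B define the classes and are not counted.

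Double-negative cells lay between the classes for both regulators, with ZBTB7B at 46.8, 53.1 and 40.2 CPM and RUNX3 at 96.7, 93.0 and 119 CPM. For ZBTB7B, their interval overlapped that of CD4 single-positive cells in naïve blood (42.9 to 51.0 against 40.0 to 67.2). The same held in sham blood (49.3 to 57.1 against 50.5 to 74.7) but not in SCI blood (36.9 to 43.8 against 44.6 to 70.3). Neither regulator is particular to T cells. In the B cells described above, ZBTB7B was at 54.3, 59.8 and 63.1 CPM and RUNX3 at 107, 114 and 115 CPM in naïve, sham and SCI blood. The intervals overlapped those of double-negative T cells for RUNX3 in SCI blood (103 to 127 against 114 to 126), while ZBTB7B was higher in the B cells there (54.7 to 72.4 against 36.9 to 43.8). In naïve blood the intervals overlapped for both genes. In sham blood they overlapped for ZBTB7B, while RUNX3 was higher in the B cells (101 to 128 against 87.9 to 98.3). Barcodes with monocyte genes and no CD3 gene held CD4 at 208, 193 and 211 CPM in 121, 70 and 10 cells, and ZBTB7B at 98.1, 81.4 and 124 CPM, so that CD4 UMIs are not particular to T cells either. CD8A and CD8B were at most 4.6 CPM there in blood. In the few barcodes with NK genes and no CD3 gene, which were 5 naïve, 7 sham and 12 SCI blood cells, RUNX3 was at 955, 808 and 684 CPM.

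**Figure D5:**
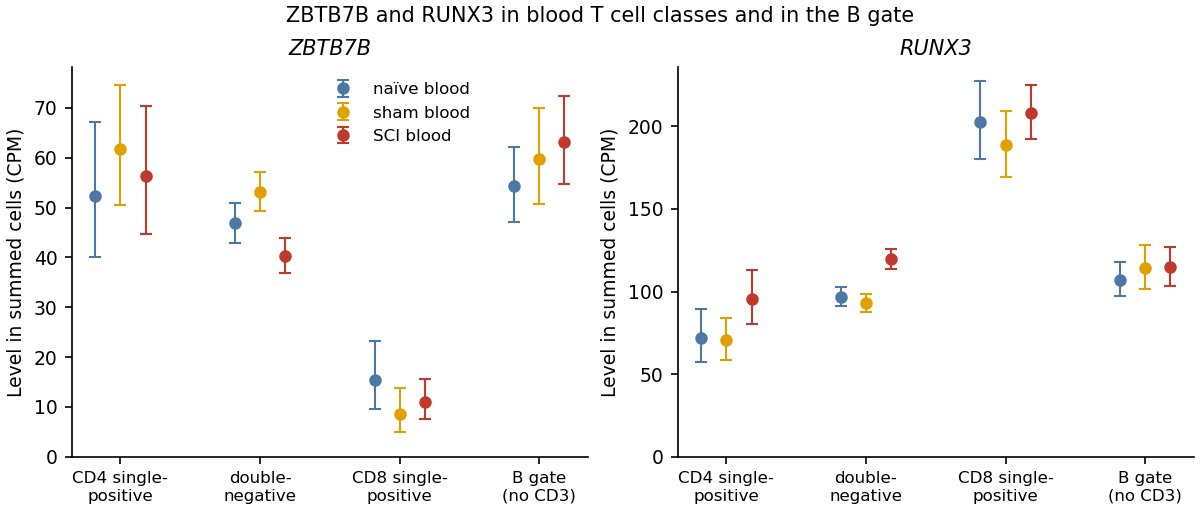
ZBTB7B and RUNX3 (CPM, linear axes from 0) in CD4 single-positive, double-negative and CD8 single-positive T cells, classed at 1000 UMIs, and in B cells (MS4A1 without CD3 genes) of the 3 blood libraries; whiskers are exact 95% intervals. ZBTB7B is at 52.3 to 61.7 CPM in CD4 against 8.53 to 15.3 CPM in CD8 single-positive cells, and RUNX3 at 70.5 to 95.6 against 189 to 208 CPM.

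Helper and cytotoxic genes lay on opposite sides of these classes, between which 23.1%, 22.7% and 25.4% of all genes passed 1.5-fold in naïve, sham and SCI blood. Of 8 helper genes, 7 in naïve and 8 in sham and SCI blood were over 1.5-fold higher in CD4 single-positive cells, with median log2 ratios of 1.38, 2.21 and 3.11 against −0.09, −0.08 and −0.07 over all genes. CD40LG, the ligand through which helper cells act on B cells, had log2 ratios of 3.84, 3.73 and 4.94, while ICOS, a costimulatory receptor, was the one below the mark in naïve blood at 0.19. FOXP3, the regulatory T cell factor, had 1.03, 2.39 and 4.26. Of 11 cytotoxic genes, 10 of 10 tested in naïve and 11 in sham and SCI blood were over 1.5-fold lower in CD4 single-positive cells, with medians of −4.36, −4.15 and −3.81. GZMK, a granzyme, had log2 ratios of −4.88, −4.78 and −4.78, while GZMA, another, was much less divided at −0.93, −1.50 and −1.02.

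Of 16 further lineage regulators, 4 were higher and 6 lower in CD4 single-positive cells of naïve, 3 and 6 in sham, and 2 and 5 in SCI blood, with medians of −0.17, −0.13 and −0.06. TOX, needed for the CD4 lineage in the thymus, had log2 ratios of 1.03, 1.13 and 1.21, and RUNX1 of 1.22, 0.63 and 1.49. GATA3, which acts upstream of ZBTB7B, had 0.76, 0.43 and 0.48 and passed the mark in naïve blood. SATB1, a chromatin organiser, had −1.48, −1.99 and −1.30, and IKZF3 −1.27, −1.31 and −1.58. LEF1, a partner of TCF7, had −0.70, −1.0 and −0.80. Of 9 genes of coreceptor signalling, LCK and ZAP70 among them, 0 passed the mark in each blood library. Over all genes tested, 23.1%, 22.7% and 25.4% passed it in either direction in naïve, sham and SCI blood, for both of these lists.

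By the largest ratios over the 3 blood libraries among 3782 genes with at least 50 CPM, the classes were led by S100A8, LYZ, CD4, S100A9 and CD40LG on the CD4 side and by CD8B, CD8A, CRTAM, ITGA1 and SERPINF1 on the CD8 side. S100A8, LYZ and S100A9 are monocyte genes, and CD4 is itself expressed by monocytes. Their ratios varied with the library, with log2 values of 0.70, 7.16 and 6.44 for S100A8 in naïve, sham and SCI blood. The monocyte markers summed to 2594, 2431 and 350 CPM in CD4 and to 1100, 17.6 and 13.1 CPM in CD8 single-positive cells. CRTAM, an adhesion receptor of activated cytotoxic cells, had −4.68, −5.71 and −6.04, and ITGA1, an integrin of tissue-resident memory cells, −5.08, −5.22 and −3.80.

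The same lists were also counted between libraries, where 13.8% (SCI over naïve), 12.1% (SCI over sham) and 8.95% (sham over naïve) of all genes passed the mark. Of the 8 helper genes, 0 were higher and 5 lower in SCI over naïve blood, with a median log2 ratio of −0.82 against 0.00 over all genes, and 0 and 5 in SCI over sham blood, with a median of −0.87. CTLA4, an inhibitory receptor, stood at 37.9, 44.7 and 16.9 CPM in naïve, sham and SCI blood, and FOXP3 at 45.4, 55.6 and 21.6 CPM. Beside this, cluster 1, which FOXP3, CTLA4, IL2RA and TNFRSF4 help to define, held 24.3%, 27.2% and 15.0% of T cells. FOXP3 within CD4 single-positive cells classed after thinning stood at 48.9, 65.2 and 49.2 CPM. Within those classed at full depth, FOXP3 stood at 56.2 (49.3 to 63.8), 60.9 (55.2 to 66.9) and 30.2 CPM (25.8 to 35.0). Whether FOXP3 was lower within CD4 single-positive cells of SCI than of naïve blood thus depended on the depth of classing. CD40LG stood at 75.0, 78.9 and 72.1 CPM over all T cells. Of the 11 cytotoxic genes, 3 were higher and 1 lower in SCI over naïve, 6 and 0 in SCI over sham, and 1 and 3 in sham over naïve blood. GZMK stood at 654, 514 and 820 CPM and NKG7 at 337, 188 and 351 CPM. Of the 16 lineage regulators, 1 was higher and 2 lower in SCI over naïve blood, namely SATB1 with a log2 ratio of 0.69, ID3 with −0.81 and TOX with −0.59, a share close to that of all genes, and the signalling genes gave 0 in both directions in the 3 comparisons of blood.

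As a description of likeness, Pearson correlations of log2(CPM + 1) were taken over 26 sums of T cells by cluster and blood library with at least 50 cells, from 9 clusters, among 8555 genes. These sums share libraries and clusters and are not independent. The genes most like CD4 were ZBTB7B (r = 0.923), ADAM19 (0.916) and IL6R (0.887), and those most like ZBTB7B were ADAM19 (0.947), CD4 (0.923) and DAPP1 (0.90). CD8B (0.935), PRR5 (0.934) and NKG7 (0.928) were most like CD8A, and CD8A (0.935), KLRC4 (0.913) and CTSW (0.902) most like CD8B. RUNX3 was most like CCL5 (0.874), NKG7 (0.847) and SAMD3 (0.844). CD4 and CD8A gave r = −0.843, ZBTB7B and RUNX3 r = −0.652.

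The SCI cord library held 82 T cells, and its values are correspondingly wide. Of the 5 genes, 1 passed 1.5-fold in the cord over SCI blood, against 38.2% of all genes, namely CD8B with a log2 ratio of −1.32 (−1.77 to −0.92). A single cell held 16 of the 48 CD8B UMIs of the cord, and with the same cluster weights on both sides the log2 ratio of CD8B was −0.63. CD8A gave −0.46 (−0.81 to −0.14), CD4 0.42 (0.11 to 0.71), ZBTB7B 0.31 (−0.29 to 0.86) and RUNX3 0.22 (−0.09 to 0.51).

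At full depth, 48.8% of cord T cells were CD4 single-positive (37.6 to 60.1), 23.2% CD8 single-positive (14.6 to 33.8) and 25.6% double-negative (16.6 to 36.4), with 2 double-positive cells. The CD4 to CD8 ratio was then 2.11 (1.19 to 3.85), but cord cells were deeper than blood cells. At 1000 UMIs it rested on 11 and 10 cells, at 1.10 (0.424 to 2.89), or 2.87 times that of SCI blood (1.09 to 7.60), and at 2000 UMIs on 14 and 15 cells, at 1.87 times (0.830 to 4.18). The value expected over all thinnings, which rests on no draw, was 0.863 against 0.396 in SCI blood at 1000 UMIs and 1.06 against 0.491 at 2000 UMIs. A second random draw gave 0.429 against 0.427, so that single draws of so few cells differed widely. Over UMIs, with no thinning, the ratio of CD4 to both CD8 genes was 0.792 (0.602 to 1.04) in the cord against 0.327 (0.311 to 0.344) in SCI blood, with 1 cell holding 16 of the CD8B UMIs. No double-positive cell was left of 79 after thinning, a count that still permits a share up to 3.80% when set at 3 cells, and up to 4.56% by the exact interval. Of the 10 cord cells with a CD8 UMI at 1000 UMIs, 9 held CD8A alone (90%, 55.5 to 99.7), and at full depth 8 of 21 did (38.1%).

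ZBTB7B had 6 UMIs in CD4 and 1 in CD8 single-positive cells, too few for the comparison, and RUNX3 was at 105 CPM (50.4 to 193) and 185 CPM (107 to 295), a log2 ratio of −0.78 (−2.10 to 0.40), where 39.7% of all genes passed 1.5-fold. With cord cells classed after thinning, the monocyte markers summed to 52.5 CPM in CD4 and 5155 CPM in CD8 single-positive cells. With cells classed at full depth they summed to 312 and 19.0 CPM, and to 8692 CPM in the 2 double-positive cells. These 2 cells had 36900.5 UMIs at the median and 71 UMIs of the thymocyte markers. Of the 2 cells, 1 lay in cluster 10, led by the monocyte genes S100A9, S100A8 and LYZ. The thinned CD8 class also held 71 thymocyte UMIs, which came from only 2 of the 7 markers, against 0 in the CD8 class of full depth. Thinning had therefore placed double-positive cells in the CD8 class. The helper genes gave 6 higher and 0 lower of 8 over SCI blood, with CTLA4 at 131 against 16.9 CPM, and the cytotoxic genes 2 higher and 2 lower of 11, a share close to the 38.2% of all genes. Of the 16 lineage regulators, 5 were higher and 5 lower, among them MYB, a factor of progenitors and activated cells, with 2.90, and SATB1 with −1.66.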

How the data were processed

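Live human CD45+ cells of 4 libraries were profiled with 10x 3′ chemistry. The authors deposited UMI counts per gene and cell barcode, made with Cell Ranger on a combined human (hg38) and mouse (mm10) reference and not normalised. Per-library totals over both species were 34161760 (naïve blood), 36007208 (sham), 36487994 (SCI) and 4206461 (SCI cord).

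T cells followed the rule given above, with no further filter. Barcode sequences found in more than 1 library numbered 12, 7, 10 and 1 among T cells in that order. Doublets were marked from the highest Scrublet scores, up to a number fixed beforehand at 0.8% per 1000 human barcodes. This marked 201, 146, 200 and 0 T cells in the same order, which were kept. For the 138 human barcodes of the cord that number was 0, so doublets there could not be marked. Cells were thinned without replacement. Sums of cells were scaled to CPM without 100 ribosomal protein and mitochondrial genes, and ratios used genes with at least 20 counts over both sides. Shares carry Clopper-Pearson, levels Poisson and ratios conditional binomial intervals. Counts were clustered over T cells only (2000 variable genes without the 5 genes, centred and scaled within library, 30 components, 15 neighbours, Leiden resolution 0.8). Tools were Python 3.11.15, numpy 2.4.6, scipy 1.17.1, scanpy 1.11.5 and, for TMM factors only, edgeR 4.0.16. The calculations were tested on simulated data.

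Genes, marker lists and the rule for named genes were chosen with earlier results of these data known. Named were the 5 genes, the 3 most correlated with each, the 5 highest and lowest ratios between classes, and examples of 4 lists (lineage regulators, coreceptor signalling, helper and cytotoxic genes), which were picked after their values had been seen, as were NKG7, KLRC1 and TRDC in the classes. No test between conditions was made, since each has 1 library and cells are not replicates. Alternatives covered depth, T cell rule, filters, shared barcodes, scaling and cluster weights. No human genome was used here, so positions and sequences are not given.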

Additional observations from a re-analysis of the deposited data

Results flagged for a closer look

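Mouse barcodes, which none of the comparisons use, held UMIs of the mouse counterparts of the regulators above the level of the naïve library. Mouse Zbtb7b stood at 53.3 CPM in 1990 mouse barcodes of sham blood, 39.0 CPM in 1230 of SCI blood and 12.3 CPM in 93 of SCI cord, against 3 UMIs (1.05 CPM) in 1411 of naïve blood. Mouse Runx3 stood at 16.7, 5.67 and 8.91 CPM, against 2 UMIs (0.698 CPM) in naïve blood. Mouse Cd4, Cd8a, Cd8b1 and Cd3e had 0 or 1 UMI in each library, while Cd3d had 427 UMIs in sham, 148 in SCI and 7 in naïve blood. The sort for human CD45 should remove mouse cells, and the source of these UMIs was not tested.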

How the results depend on the processing

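Of 216 alternatives to the main values, 171 stayed within the counting interval or within 1.5-fold of a count and 41 moved. The other 4, in naïve and sham blood, crossed 1 outside that interval. A further 200 alternatives covered the log2 ratio of each gene between libraries, of which 175 stayed and 25 moved. A change of sign was counted apart among these only where the main ratio had passed 1.5-fold, which that of CD4 had not. The cord ratio, whose interval spans 1, lay on either side of it, from 0.429 in another draw to 2.11 without thinning. Each alternative thinned cells anew. The CD4 to CD8 ratio crossed 1 without thinning (1.30 in naïve and 1.56 in sham blood, 0.80 in SCI blood) and with CD8B alone as the CD8 mark (1.38 and 1.39, with 0.623 in SCI blood and 11 in SCI cord), which drops cells by construction. At 2000 UMIs it was 0.906 in naïve and 0.500 in SCI blood. In naïve, sham and SCI blood, the double-positive share was 0.579%, 0.439% and 0.483% at 2000 UMIs, 1.43%, 2.29% and 1.94% without thinning and 0% with 2 UMIs required, and the double-negative share 67.4%, 66.2% and 59.0%, then 52.8%, 41.3% and 37.4%, then 96.1%, 95.4% and 93.1%. In SCI cord the double-negative share was 25.6% without thinning, 97.5% with 2 UMIs and 87.3% in another draw. Without shared barcodes it was 80.4% in sham and 74.7% in SCI blood. Without T cell clusters 10, 11 and 12, chosen after seeing the data, the double-positive share of sham blood was 0.387% and the ZBTB7B log2 ratio between its classes 1.97. That ratio was 1.91 with unthinned classes and 2.05 without marked doublets and outliers, which gave 2.82 in naïve blood. RUNX3 was at −1.11 in naïve and −1.03 in sham blood with at least 90% human UMIs. Of the 5 genes, 1 passed 1.5-fold in both SCI comparisons with CPM over all genes, which moved the median of SCI over naïve blood by −0.10 and its higher and lower calls from 880 and 992 to 679 and 1254, and in SCI over sham blood from 769 and 897 to 616 and 1113. Over naïve blood, 1 passed without clusters 10, 11 and 12, and 0 passed in both comparisons with the same cluster weights on both sides. In SCI cord over SCI blood 2 passed by the mean CPM per cell. TMM factors moved the cord median by −0.13 and its calls from 2382 and 2422 to 2000 and 2945. Without the low-count filter, genes called went from 1217 to 6033, 1872 to 6717, 1666 to 6589 and 4804 to 11596. The cause was not tested for the values that moved through a new draw. The value expected over all thinnings was also chosen after seeing the data. The 79 thinned cord cells limit every cord share. No paired analysis was possible because each group is 1 library.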
